A study of Mus musculus with 6 samples.

Results

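The 46 genes described here encode proteins that carry a cell through G2 and mitosis, from the cyclin B and CDK1 pair that triggers division to the proteins that cut the cell apart at its end. They were taken by symbol from a list drawn up with earlier results of these data known, no filter on their level was applied, and all 46 were found among the 24908 genes of a table of expression values from the mouse prostate, which writes its symbols in capitals (CCNB1, MKI67, MAD2L1, ANLN). The values are FPKM, read numbers normalized to transcript length and sequencing depth, so that levels can be compared between genes. The table has 6 libraries, 1 for each of the ventral (VP), dorsolateral (DLP) and anterior (AP) lobes of a wild-type mouse (WT) and of a littermate heterozygous for the Hi-MYC transgene (MYC). Both mice were FVB males, 12 weeks old and on the same purified diet. The transgene places human c-MYC under ARR2Pb, an androgen-responsive probasin promoter that is active in prostate epithelium, and the WT mouse carried no transgene. Every lobe was dissociated, and an aliquot of the suspension went to single-cell sequencing. RNA for these libraries was taken from as many cells as that aliquot held, stromal and blood cells included. All 3 lobes of a genotype came from the same animal, so that genotype and mouse cannot be told apart, and no lobe and genotype had a second library. There is therefore no replicate error and no p-value anywhere below.

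Dividing cells make these transcripts in a burst. Their promoters are held silent in resting cells and in G1, largely through the DREAM complex, and are switched on in G2 when B-MYB and FOXM1 join the MuvB core, and most of the transcripts and proteins are removed again as the cell leaves mitosis. The summed level of such genes in a tissue is therefore commonly read as a measure of how many of its cells are dividing. The epithelium of an adult mouse prostate divides rarely.

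Sequencing depth, recovered from the steps of low values, was 25.5 M reads in WT AP and between 34.8 M and 50.2 M in the other 5 libraries. Mouse Myc, as a check of the labels, was at 230 FPKM in WT AP, 200.6 in WT DLP and 226.4 in WT VP, and at 230.9 (AP), 586.1 (DLP) and 1696 (VP) in MYC. The MYC to WT ratio was thus 7.49 in VP, 2.92 in DLP and 1 in AP, and how many reads of the human transgene fall on the mouse gene was not tested. Mouse Myc thus did not tell the library labelled MYC AP from WT AP and is no check of that label, and MYC AP below stands for the library so labelled. Summed over 6 markers, the luminal level was highest in VP of both genotypes (4078 FPKM for WT and 3713 for MYC, against 1862 to 2598 in AP and DLP), and no luminal or basal marker was listed at 0 in any library. MYC AP also carried seminal vesicle secretion transcripts, with 292.5 FPKM of Svs4 and 212 FPKM of Svs5, against 0 in every WT library. Svs4 was at 4.68 FPKM in MYC DLP.

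The promoters of mitotic genes share short elements, which were not used to choose the members. A CCAAT box binds NF-Y, and a CHR element, TTTGAA or its variant TTCGAA, is the site of MuvB. Of the 46 members, 39 had a RefSeq promoter window (GRCm38.p6, which is mm10), with 42 windows in all, each from 250 bases before a start site to 50 after it. Aurkb, Ccna2, Cdc25c, Dlgap5, Foxm1, Kif20a and Tpx2 had none. On either strand, CCAAT was found in 33 of the 42 windows (78.6%), against 37.4% of all 32851 promoter windows, and at least 2 copies in 22 (52.4% against 11.7%). TTTGAA was found in 30 (71.4% against 17.9%) and TTCGAA in 4 (9.52% against 1.56%). CCAAT together with TTTGAA or TTCGAA was found in 28 windows, 66.7%, against 7.52% of all. The E-box CACGTG, the site that MYC and MAX prefer, was added to the search afterwards and was in 2 of the 42 windows, 4.76% against 7.15% of all. These are matches of letters and show no binding.

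The 250 bases before the start site are printed for 3 members that were far higher in MYC than in WT (Ccnb2, Top2a and Ube2c) and for the 3 that were left out of the correlation between lobes given later (Anln, Mad2l1 and Cdc25b), 5′ to 3′ along the strand of the gene. Capitals mark the CCAAT box and the CHR element in its form TTTGAA or its variant TTCGAA, and a match to the other strand reads ATTGG for the box and TTCAAA for the first form of the element. They lie at chr9:70421555-70421804 on the minus strand (Ccnb2), chr11:99024190-99024439 on the minus strand (Top2a), chr2:164769679-164769928 on the plus strand (Ube2c), chr9:22389207-22389456 on the minus strand (Anln), chr6:66534971-66535220 on the plus strand (Mad2l1) and chr2:131186698-131186947 on the plus strand (Cdc25b).
Ccnb2: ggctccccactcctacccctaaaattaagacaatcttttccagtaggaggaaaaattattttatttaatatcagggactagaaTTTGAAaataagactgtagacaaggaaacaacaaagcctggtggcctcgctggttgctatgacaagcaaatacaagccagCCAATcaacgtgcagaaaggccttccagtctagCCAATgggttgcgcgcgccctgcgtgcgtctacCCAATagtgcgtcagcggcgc
Top2a: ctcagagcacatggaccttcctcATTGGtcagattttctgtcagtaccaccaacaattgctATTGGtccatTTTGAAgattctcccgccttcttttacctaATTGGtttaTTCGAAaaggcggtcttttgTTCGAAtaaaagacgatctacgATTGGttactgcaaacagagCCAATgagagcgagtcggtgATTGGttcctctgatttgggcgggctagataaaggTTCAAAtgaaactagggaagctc
Ube2c: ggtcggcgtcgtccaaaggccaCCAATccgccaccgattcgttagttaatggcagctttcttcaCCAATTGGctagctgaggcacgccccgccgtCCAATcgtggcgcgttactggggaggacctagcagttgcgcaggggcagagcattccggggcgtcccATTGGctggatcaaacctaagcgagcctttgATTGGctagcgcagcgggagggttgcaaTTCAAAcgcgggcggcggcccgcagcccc
Anln: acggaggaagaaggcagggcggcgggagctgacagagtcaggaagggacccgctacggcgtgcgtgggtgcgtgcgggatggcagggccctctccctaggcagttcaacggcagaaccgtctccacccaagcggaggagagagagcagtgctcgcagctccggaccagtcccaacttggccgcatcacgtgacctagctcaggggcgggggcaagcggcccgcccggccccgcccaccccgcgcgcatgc
Mad2l1: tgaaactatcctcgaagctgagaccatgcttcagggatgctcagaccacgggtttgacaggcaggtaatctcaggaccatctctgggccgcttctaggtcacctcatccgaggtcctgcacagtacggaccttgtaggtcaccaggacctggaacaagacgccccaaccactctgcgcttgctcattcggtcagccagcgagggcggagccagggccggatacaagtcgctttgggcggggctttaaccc
Cdc25b: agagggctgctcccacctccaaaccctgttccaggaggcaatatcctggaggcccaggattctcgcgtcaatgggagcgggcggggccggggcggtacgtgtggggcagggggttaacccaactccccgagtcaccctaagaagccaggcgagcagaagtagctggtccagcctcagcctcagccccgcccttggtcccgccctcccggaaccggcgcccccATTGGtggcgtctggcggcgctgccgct
In these stretches Ccnb2 had 3 CCAAT boxes and 1 TTTGAA, Top2a had 6 CCAAT boxes, 2 TTTGAA and 2 TTCGAA, and Ube2c had 6 CCAAT boxes, 2 of which overlap on opposite strands, and 1 TTTGAA. Cdc25b had 1 CCAAT box, with 1 TTCGAA after its start. The stretches of Anln and Mad2l1 held none of these letters, although Anln had 2 copies of TTTGAA in the 50 bases after its start, and 1 CACGTG, left in lower case. No match says only that these letters are not in these 250 bases. Mad2l1 was 1 of 5 members with none of them in the whole window, the others being Birc5, Nuf2, Nusap1 and Tacc3, and all 4 of these were called higher in MYC in both VP and DLP.

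The first question was how much of the mitotic program each lobe held in the WT mouse. Levels were low. The median over the 46 members was 0.292 FPKM in WT AP, 0.181 in WT DLP and 0.217 in WT VP, and 37 of the 46 were under 1 FPKM in all 3 WT libraries. Counted in estimated reads, 10 members in WT AP, 6 in WT DLP and 9 in WT VP had fewer than 10, 12 of the 46 in at least 1 of these libraries. Only Cdc25c in WT AP was listed at 0, where it had no reads. Levels above 2 FPKM in WT belonged to 4 genes: Mad2l1 in AP (5.15) and DLP (2.26), Birc5 in AP (2.44), Prc1 in AP (2.31) and Anln in DLP (4.90) and VP (5.48). In the MYC mouse the median was 1.49 FPKM in AP, 3.90 in DLP and 3.58 in VP, and the members summed to 96.2, 251.9 and 226.7 FPKM in these lobes, against 27.3, 23.25 and 19.35 in the WT lobes. No member was under 1 FPKM in MYC DLP, 1 was in MYC VP and 16 were in MYC AP. For 44 of the 46 the lowest MYC library lay above the highest WT library, a pattern found in 7.6% of all genes and in 10.7% of the 12361 that averaged 1 FPKM or more over the libraries. The exceptions were Anln and Cdc25b. In this bulk RNA, more dividing cells and more of these transcripts in each cell cannot be told apart.

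**Figure D1:**
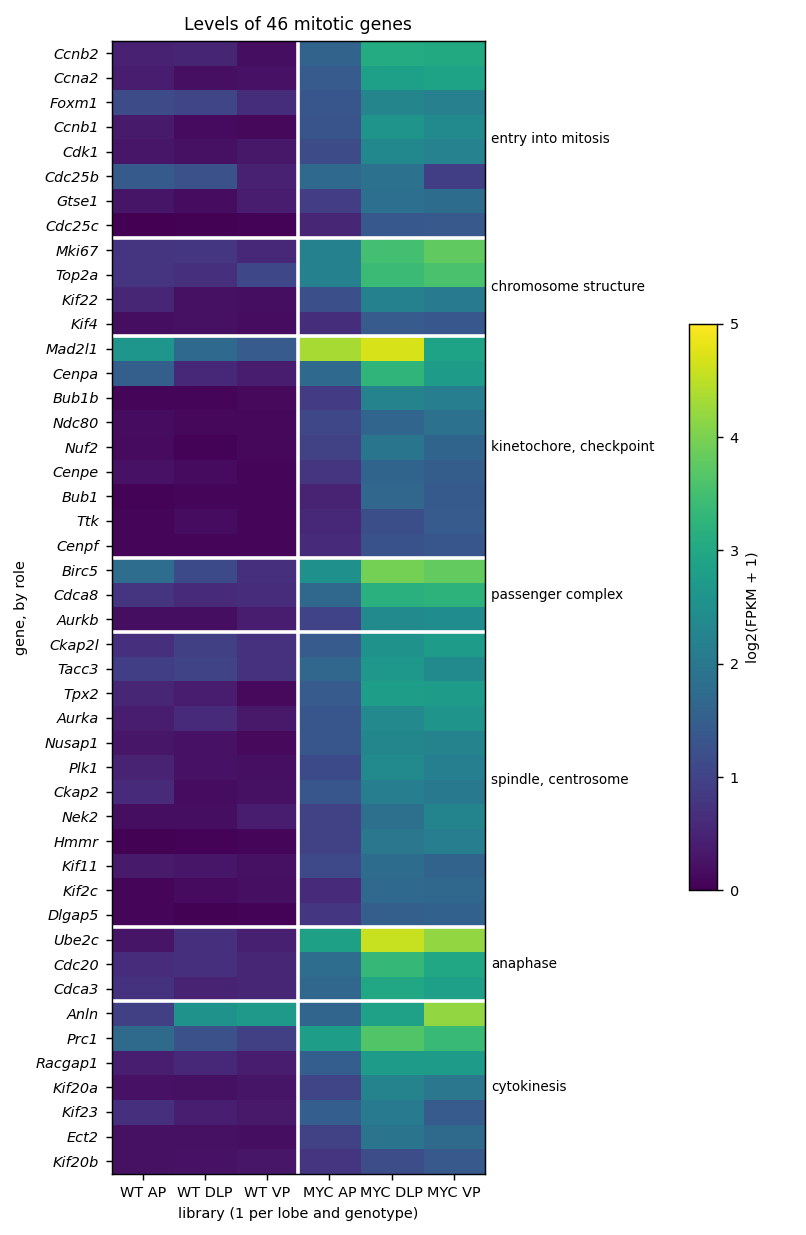
Level of each of the 46 genes (rows, grouped by role) in each of the 6 libraries (columns), as log2(FPKM + 1) on the color scale. The 3 WT columns are dark for nearly all genes, with Mad2l1 and Anln the main exceptions, MYC AP is intermediate, and MYC DLP and MYC VP are bright.

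Genes were called between libraries at a 2-fold difference of FPKM + 1, a scale that shrinks the differences of low genes, and plain FPKM ratios are given beside it with a 95% interval of the estimated reads, which covers counting error only. In VP, 45 of the 46 members were called higher in MYC than in WT and none lower, against 3.76% of all genes called higher (6.88% of those averaging 1 FPKM or more) and 3.03% lower. The median log2 difference of FPKM + 1 was 1.87, against 0.04 for genes averaging 1 FPKM or more, and the median FPKM ratio was 17.9 (range 2.44 to 70.1). In DLP, 43 were called higher and none lower, against 3.85% of all genes called higher (6.46% of those averaging 1 FPKM or more) and 1.82% lower, with a median log2 difference of 1.95 and a median FPKM ratio of 18.6 (1.27 to 80.1). In AP, 10 were called higher and none lower, against 1.12% of all genes called higher (2.05% of those averaging 1 FPKM or more) and 0.321% lower, with a median log2 difference of 0.79 against 0.13. This count rests on the scale, since 29 were called higher in AP per unit of Krt8 and Krt18 and 42 with a pseudocount of 0.1. Under the keratin scaling the median log2 difference of genes averaging 1 FPKM or more in AP was 0.29, against 0.13 as deposited. For neither alternative was the share of all genes called computed. The FPKM ratio in AP had a median of 5.02, and over the 45 members above 0 in WT AP it ran from 1.22 to 46.8. All 46 members had a higher FPKM in MYC in every lobe, and the interval of the ratio lay above 1 for all 46 in VP and DLP and for 45 in AP, Cenpa being the exception. A ratio of 10 or more was reached by 36 members in VP, 37 in DLP and 6 of the 45 in AP. As deposited, the 10 members called in all 3 lobes were Ccna2, Ccnb2, Cdc20, Mad2l1, Mki67, Nusap1, Prc1, Racgap1, Top2a and Ube2c.

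**Figure D2:**
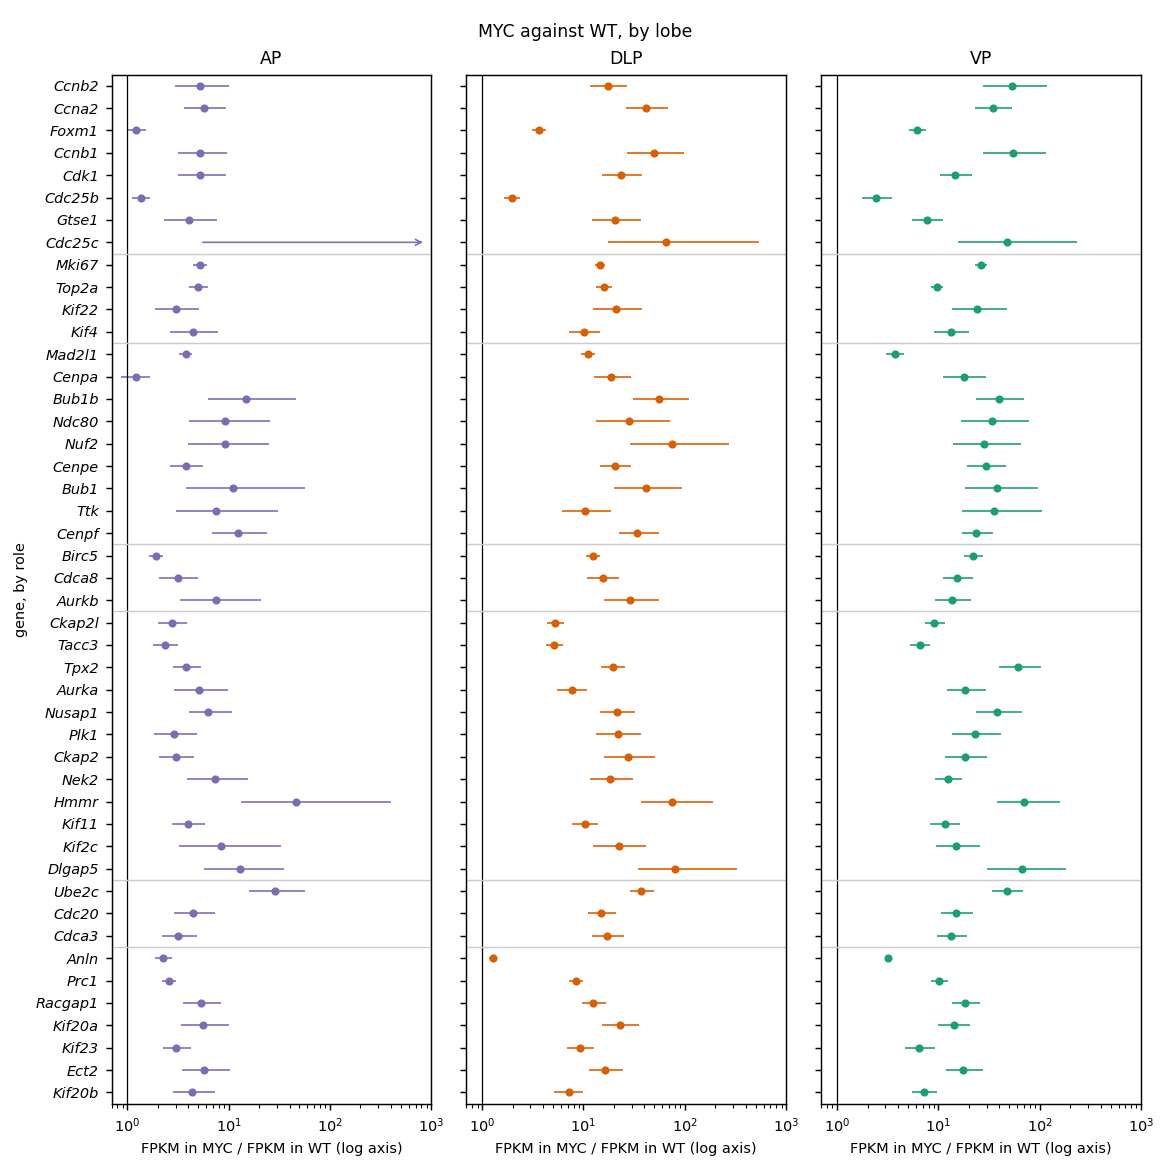
FPKM in MYC over FPKM in WT (x axis, log scale) for each of the 46 genes, by lobe, with the 95% interval of the estimated reads as a bar and the line of no difference at 1; the arrow for Cdc25c in AP starts at the lower bound, since WT AP had no reads. In VP and DLP most points lie above 10, and in AP most lie between 2 and 10.

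The members that open mitosis were cyclin A2 (Ccna2), which drives S phase and G2, the B cyclins Ccnb1 and Ccnb2, their kinase Cdk1, the phosphatases Cdc25b and Cdc25c that activate it, the transcription factor Foxm1 and the microtubule-binding protein Gtse1. Of these 8, 7 were called higher in MYC in VP, 7 in DLP and 2 in AP, and the median FPKM ratio was 24.4 in VP, 21.9 in DLP and 5.24 in AP. Ccnb1 (chr13:100778739-100786486) was at 0.278 FPKM in WT AP, 0.1 in WT DLP and 0.076 in WT VP, and at 1.46 (AP), 4.98 (DLP) and 4.15 (VP) in MYC. The WT values rest on 16, 11 and 9 estimated reads, and the groups do not overlap. Its FPKM ratio was 54.4 in VP (95% interval 27.3 to 115), 49.7 in DLP (26.9 to 98.2) and 5.27 in AP (3.19 to 9.56). Ccnb2 (chr9:70407689-70421554), whose promoter is printed above, was at 0.381, 0.428 and 0.136 FPKM in WT AP, DLP and VP and at 2.0, 7.43 and 7.22 in the same lobes of MYC. Ccna2 (chr3:36564865-36573038) was at 0.296, 0.147 and 0.190 FPKM in WT and at 1.70, 6.05 and 6.51 in MYC. Both followed Ccnb1, with MYC DLP and MYC VP far above MYC AP and all WT lobes at the bottom. Cdk1 (chr10:69335146-69352912), the kinase that every B cyclin works through, was at 0.236, 0.174 and 0.248 FPKM in WT AP, DLP and VP and at 1.24, 4.07 and 3.63 in MYC. Its FPKM ratio was 14.7 in VP (10.3 to 21.6), 23.4 in DLP (15.2 to 37.6) and 5.24 in AP (3.17 to 9.5).

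Cdc25b (chr2:131186436-131198511) was the member of this group that followed another order. It was at 1.67 FPKM in WT AP, 1.37 in WT DLP and 0.371 in WT VP, and at 2.28 (AP), 2.7 (DLP) and 0.905 (VP) in MYC. MYC VP was thus the lowest MYC lobe and lay below WT AP and WT DLP, so that the genotypes overlap. Cdc25b was called in no lobe, although its FPKM ratio was 2.44 in VP (1.75 to 3.48), 1.97 in DLP (1.63 to 2.39) and 1.37 in AP (1.11 to 1.69). Its paralogue Cdc25c had at most 3 estimated reads in any WT library and 39, 96 and 117 in MYC AP, DLP and VP. With 0 reads in WT AP, the lower bound of its ratio there was 5.13. Foxm1 was at 1.23 FPKM in WT AP, 1.07 in WT DLP and 0.571 in WT VP, and at 1.51, 3.87 and 3.53 in the same lobes of MYC. Its ratio, 6.18 in VP, 3.6 in DLP and 1.23 in AP, was well below the medians of the group.

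The next 4 members act on the chromosomes themselves: topoisomerase II alpha (Top2a), which untangles sister chromatids, Ki-67 (Mki67), which coats mitotic chromosomes and is a common stain for dividing cells, and the chromosome-bound kinesins Kif22 and Kif4. All 4 were called higher in VP and DLP, and Top2a and Mki67 also in AP. Mki67 (chr7:135689784-135716450) was at 0.693, 0.721 and 0.484 FPKM in WT AP, DLP and VP and at 3.60, 10.4 and 12.8 in MYC. With 175 to 334 estimated reads in the WT libraries it was among the best measured members, and its ratio was 26.4 in VP (23.2 to 30.2), 14.5 in DLP (12.9 to 16.2) and 5.19 in AP (4.43 to 6.08). Top2a (gene body chr11:98992947-99024199) was at 0.718, 0.604 and 1.12 FPKM in WT AP, DLP and VP and at 3.61, 9.58 and 10.8 in MYC. Top2a was the only one of the 4 with its highest WT level in VP, and its ratio there, 9.65 (8.52 to 11), was below its 15.9 in DLP (13.4 to 19). Kif4, on the X chromosome, had the smallest log2 difference of the 4 in both lobes (1.20 in VP and 1.21 in DLP), at 0.13, 0.169 and 0.116 FPKM in WT AP, DLP and VP and 0.579, 1.70 and 1.56 in MYC.

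The kinetochore joins each chromosome to the spindle, and the spindle checkpoint delays anaphase until every kinetochore is attached. The 9 members with this role were the centromeric histone Cenpa, the kinetochore motor Cenpe and the kinetochore protein Cenpf, the microtubule-binding Ndc80 and Nuf2, and the checkpoint proteins Bub1, Bub1b (BubR1), Ttk (the kinase Mps1) and Mad2l1 (Mad2). All 9 were called higher in MYC in VP and in DLP and 1, Mad2l1, in AP. This group had the largest median FPKM ratio of the 7 role groups in each lobe, 29.2 in VP, 28.1 in DLP and 9.16 in AP, but its median log2 difference of FPKM + 1 was the smallest of the 7 in each lobe (1.45, 1.57 and 0.55), since most of its members were under 0.2 FPKM in WT. Bub1b illustrates this, at 0.0565, 0.0672 and 0.0871 FPKM in WT AP, DLP and VP and at 0.846, 3.72 and 3.42 in MYC. Its FPKM ratio was 39.3 in VP (23.6 to 70.7), with 15 estimated reads in WT VP against 488 in MYC VP. Cenpf, with the smallest log2 difference of the group in VP, and Ttk, with the smallest in DLP, were both under 0.2 FPKM in WT. Cenpf was at 0.043, 0.0418 and 0.0645 FPKM in WT AP, DLP and VP and at 0.528, 1.41 and 1.53 in MYC. Ttk was at 0.0624, 0.126 and 0.0478 FPKM in WT and at 0.473, 1.31 and 1.70 in the same lobes of MYC. For both, each MYC lobe lay above all WT lobes. Cenpa (chr5:30666877-30674837) was at 1.85 FPKM in WT AP, 0.462 in WT DLP and 0.327 in WT VP, and at 2.26, 8.71 and 5.79 in the same lobes of MYC. It was 4.02-fold higher in AP than in DLP of WT (2.48 to 6.78) and 5.67-fold higher than in VP (3.29 to 10.1). Its MYC to WT ratio was 17.7 in VP and 18.9 in DLP but 1.22 in AP (0.878 to 1.69), the sole ratio of the 46 in AP whose interval holds 1.

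Mad2l1 (chr6:66535221-66541107) had the highest mean level of all 46 members and was unlike the rest of its group. It was at 5.15 FPKM in WT AP, 2.26 in WT DLP and 1.72 in WT VP, and at 19.4 (AP), 24.8 (DLP) and 6.42 (VP) in MYC. MYC VP was the lowest MYC lobe, close above WT AP. The MYC to WT ratio was 11 in DLP (9.36 to 13.1), 3.77 in AP (3.26 to 4.4) and 3.73 in VP (3.06 to 4.59).

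The chromosomal passenger complex corrects wrong attachments and later marks the division plane. Its members here were the kinase Aurkb (Aurora B), survivin (Birc5) and borealin (Cdca8), all 3 called higher in VP and DLP and none in AP. Birc5 (chr11:117849237-117855743) was at 2.44 FPKM in WT AP, 1.19 in WT DLP and 0.591 in WT VP, and at 4.70, 14.6 and 13.0 in the same lobes of MYC. AP was the highest of the WT lobes and the lowest of the MYC lobes. Its ratio was 22 in VP (17.8 to 27.4), 12.3 in DLP (10.5 to 14.5) and 1.93 in AP (1.64 to 2.27). Aurkb, the lowest of the 3, was at 0.133, 0.144 and 0.320 FPKM in WT AP, DLP and VP and at 0.997, 4.17 and 4.37 in MYC, so that its ratio in AP was 7.48 (3.29 to 20.9).

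Of the 12 spindle and centrosome members, Aurka (Aurora A), Plk1 and Nek2 are kinases, Tpx2 activates Aurora A on the spindle, Kif11 (Eg5) is the motor that pushes the poles apart and Kif2c (MCAK) a kinesin that takes microtubules apart, while Nusap1, Hmmr, Dlgap5 (HURP), Tacc3, Ckap2 and Ckap2l bind spindle microtubules. All 12 were called higher in VP and in DLP and 1, Nusap1, in AP, with a median FPKM ratio of 18.3, 20.3 and 4.57 in VP, DLP and AP. Tpx2 (chr2:152847964-152895321) was at 0.445, 0.306 and 0.0921 FPKM in WT AP, DLP and VP and at 1.70, 5.93 and 5.67 in MYC. Its ratio was 61.5 in VP (39.3 to 103), 19.4 in DLP (14.8 to 25.5) and 3.83 in AP (2.84 to 5.34), and WT VP, with 19 estimated reads, was the lowest WT lobe. Ckap2l, the highest of the 12 by its mean, was at 0.614, 0.939 and 0.631 FPKM in WT and at 1.70, 4.92 and 5.75 in MYC AP, DLP and VP. Kif11 was at 0.288, 0.234 and 0.174 FPKM in WT and at 1.15, 2.42 and 2.02 in MYC. The largest FPKM ratio of any member was that of Hmmr in VP and that of Dlgap5 in DLP, both barely read in WT. Hmmr had 9 estimated reads in WT VP and 540 in MYC VP, a ratio of 70.1 (37.9 to 159), and Dlgap5 had 4 in WT DLP and 263 in MYC DLP, a ratio of 80.1 (34.2 to 328). Their intervals overlap those of many other members.

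Anaphase begins when Cdc20 switches on the anaphase-promoting complex, with Ube2c as the enzyme that supplies it with ubiquitin, and Cdca3 (TOME-1) serves the destruction of the inhibitor Wee1. All 3 were called higher in VP and DLP, and Cdc20 and Ube2c also in AP. Ube2c (chr2:164769929-164772902) had the largest log2 difference of FPKM + 1 among the 46 in each lobe, 3.74 in VP, 3.89 in DLP and 2.56 in AP. It was at 0.216 FPKM in WT AP, 0.614 in WT DLP and 0.361 in WT VP, and at 6.16, 22.9 and 17.2 in the same lobes of MYC, so that even the lowest MYC library was far above WT. Cdca3, with the smallest log2 difference of the 3, was at 0.671, 0.413 and 0.455 FPKM in WT AP, DLP and VP and at 2.15, 7.0 and 6.09 in MYC.

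The last 7 members build the central spindle and the contractile ring: Prc1, which bundles the central spindle, Kif23 and Racgap1, which form centralspindlin, the RhoA activator Ect2, the kinesins Kif20a and Kif20b, and anillin (Anln), the scaffold of the ring. All 7 were called higher in VP, 5 in DLP and 2, Prc1 and Racgap1, in AP, with median FPKM ratios of 10.2, 9.34 and 4.38. Prc1 (chr7:80294445-80316259) was at 2.31, 1.35 and 0.932 FPKM in WT AP, DLP and VP and at 5.94, 11.4 and 9.51 in MYC. Its ratio was 10.2 in VP (8.5 to 12.3), 8.45 in DLP (7.2 to 9.92) and 2.57 in AP (2.18 to 3.05). Prc1 shares 21669 bases with Rccd1, which was between 2.98 and 6.41 FPKM in the 6 libraries, and the strand setting of the counting is not given in the sources used here. In all, 16 members overlap another annotated gene, 8 of them a protein coding gene. Kif23 was at 0.595, 0.342 and 0.262 FPKM in WT AP, DLP and VP and at 1.82, 3.20 and 1.70 in MYC, the third member with its lowest MYC level in VP. Kif20b was at 0.164, 0.177 and 0.226 FPKM in WT AP, DLP and VP and at 0.716, 1.26 and 1.64 in MYC, and was not called in DLP, with a ratio of 7.12 (5.12 to 9.95).

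Anln (chr9:22331214-22389211) was, like Cdc25b, a member whose lowest MYC library did not lie above its highest WT library. It was at 0.930 FPKM in WT AP, 4.90 in WT DLP and 5.48 in WT VP, and at 2.12, 6.25 and 17.3 in the same lobes of MYC. WT DLP and WT VP both lay above MYC AP, and these WT levels rest on 1201 and 1421 estimated reads. Its MYC to WT ratio was 3.16 in VP (2.97 to 3.36), 2.28 in AP (1.87 to 2.78) and 1.27 in DLP (1.17 to 1.38), the smallest ratio of any member in DLP. Anln shares 653 bases with 9530077C05Rik, which was at most at 1.21 FPKM in any library.

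The second question was whether the lobes of the transgenic mouse differed, above all DLP from VP. In WT, no member was called between DLP and VP in either direction, against 3.28% of all genes higher in DLP and 1.38% lower. A gene under 1 FPKM in both libraries cannot reach a 2-fold difference of FPKM + 1. Per unit of Krt8 and Krt18, 5 members were called higher in WT DLP, and 3 with a pseudocount of 0.1. Under the keratin scaling the median log2 difference of genes averaging 1 FPKM or more was 1.41 in WT, against 0.13 as deposited. No share of all genes called was computed for these 2 alternatives. On plain FPKM, the median ratio of WT DLP over WT VP was 1.3, 28 members lay within 1.5-fold, and the interval of the ratio lay above 1 for 14, below 1 for 5 and held 1 for 27. Tpx2 was 3.32-fold higher in WT DLP (1.97 to 5.93) and Ccnb2 3.16-fold (1.45 to 7.68). In MYC, 1 member was called higher in DLP, Mad2l1, and 1 lower, Anln, against 7.44% of all genes higher in DLP and 1.94% lower. Per unit of Krt8 and Krt18, 14 were called higher in DLP and 0 lower, and the share of all genes was not computed there. The median FPKM ratio of MYC DLP over MYC VP was 1.09, and 41 of the 46 lay within 1.5-fold. Mad2l1 was 3.87-fold higher in DLP (3.46 to 4.33), Cdc25b 2.98-fold (2.37 to 3.74), Kif23 1.88-fold (1.59 to 2.23) and Cenpa 1.5-fold (1.28 to 1.77), and Anln was at 0.361 of its VP level (0.337 to 0.386). Cdc25b had a similar ratio in WT, 3.69 (2.71 to 5.11), whereas the WT ratios of Mad2l1 and Anln were 1.31 (1.03 to 1.66) and 0.895 (0.828 to 0.967). As deposited, 30 members were higher in MYC DLP and 16 in MYC VP, and the interval of the ratio lay above 1 for 18, below 1 for 10 and held 1 for 18. This order depended on the scaling, since 18 members were higher in DLP after scaling to medians of ratios and 45 after scaling to the luminal keratins Krt8 and Krt18, under which the median log2 difference of genes averaging 1 FPKM or more was 0.96, against 0.07 as deposited. The role groups differed little between the lobes, with median DLP to VP ratios in MYC from 0.956 in the passenger complex to 1.33 in the anaphase group. Across the 46 members, Pearson's r of log2(FPKM + 1) between MYC DLP and MYC VP was 0.873, and 0.960 over the 43 left without Anln, Mad2l1 and Cdc25b, which were left out after their values were seen. Over all 46 it was 0.912 between MYC AP and MYC DLP, 0.697 between MYC AP and MYC VP, and 0.914 between WT DLP and WT VP, and over the same 43 it was 0.941, 0.908 and 0.854. These members share their libraries and are not replicates.

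**Figure D3:**
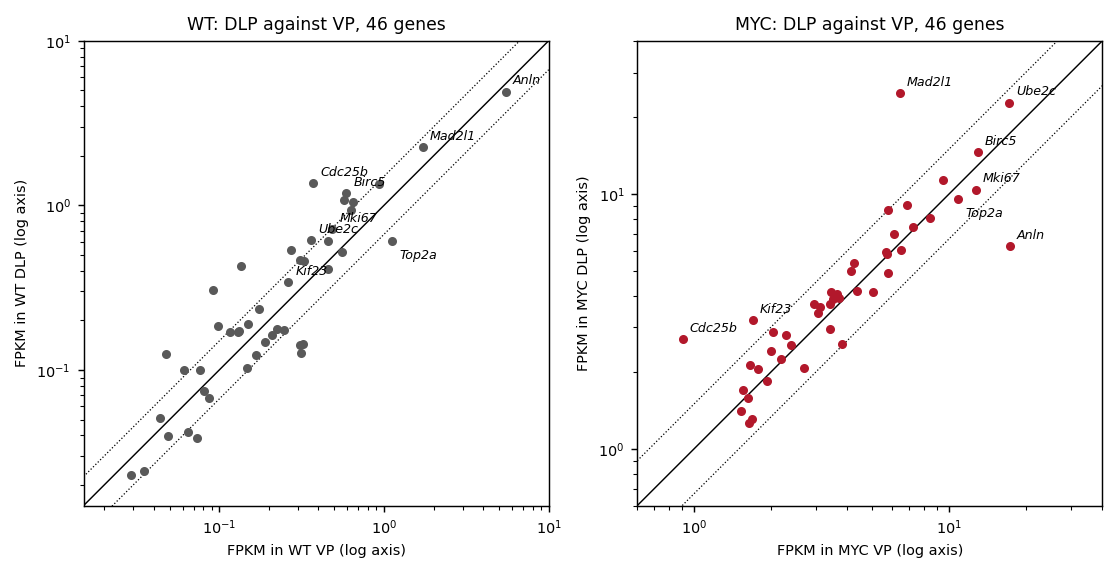
FPKM in DLP (y axis, log scale) against FPKM in VP (x axis, log scale) of the 46 genes in WT (left) and MYC (right), with the line of equal levels and dotted lines at 1.5-fold; selected genes are named. In MYC the points lie along the diagonal apart from Mad2l1, Cdc25b and Kif23 above it and Anln below it.

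MYC AP was the lowest MYC lobe for 43 of the 46 members, the exceptions being Cdc25b, Kif23 and Mad2l1, for which VP was lowest. No share of all genes was computed for the lobe orders in this paragraph or for levels relative to the mean of MYC DLP and MYC VP. MYC AP is also the library with the seminal vesicle transcripts given above, whose part in these levels was not tested. Against MYC VP, 23 members were called lower in AP and 1, Mad2l1, higher, where 4.74% of all genes were called lower and 8.52% higher, and the median FPKM ratio was 0.355. The 23 became 12 with equal sums of FPKM, 15 with equal sums without the 20 genes of highest FPKM, 1 per unit of Krt8 and Krt18 and 39 with a pseudocount of 0.1. Against MYC DLP, 24 were called lower and none higher, against 2.56% of all genes called lower and 1.89% higher, and the median ratio was 0.337. The 24 became 15 per unit of Krt8 and Krt18 and 40 with a pseudocount of 0.1. Relative to the mean of MYC DLP and MYC VP, the AP level was under 0.5 for 41 members, and was 0.18 for Anln and 1.27 for Cdc25b at the ends of the range. These differences depend on what each lobe is scaled to. Per unit of Krt8 and Krt18, which were at 388 and 448 FPKM in MYC AP against 1101 and 1313 in MYC VP, the median log2 difference between AP and VP was 0.03 in place of -0.98, and 20 members in place of 43 were lowest in AP. Under that scaling the median of genes averaging 1 FPKM or more was 1.30, against 0.02 as deposited. Between MYC AP and MYC DLP it was 0.33, against -0.07 as deposited. In the WT mouse 21 members were highest in AP, 12 in DLP and 13 in VP. Birc5, Cenpa and Mad2l1 were called higher in WT AP than in WT VP and Anln lower, against 5.3% of all genes called higher and 4.1% lower. In place of these 3 and 1, 6 were called higher and 0 lower per unit of Krt8 and Krt18, and 11 higher with a pseudocount of 0.1. Per unit of these keratins the median log2 difference of genes averaging 1 FPKM or more was 1.29 between WT AP and WT VP, against 0.01 as deposited. The share of all genes called was computed under neither alternative. Anln was also lower than in WT DLP (0.19 of its level, 0.157 to 0.229), where 2.08% of all genes were called lower and 0.723% higher.

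Of 59 mitotic genes outside the 46, such as Pbk, Cks2 and Cenph, 29 were called higher in MYC in VP, 29 in DLP and 3 in AP and none lower, with median log2 differences of 1.0, 0.98 and 0.36 in those lobes. By the log2 difference of FPKM + 1, Pbk, a mitotic kinase, was the most changed in VP, from 0 in WT to 6.17 FPKM in MYC. Next on that scale came the CDK-binding Cks2, from 2.89 to 22.2, and the centromere protein Cenph, from 0.0385 to 3.14. The 3 with the highest mean were Wee1, Ube2s and Cks1b, and none of the 3 was called between MYC and WT in any lobe. Genes of S phase, among them the replicative helicase subunits, were called higher in 21 of 33 in VP, 14 in DLP and none in AP, with median FPKM ratios of 4.05, 3.01 and 1.49. Mcm6, the one with the largest log2 difference of FPKM + 1 in VP, was at 1.90, 1.65 and 0.737 FPKM in WT AP, DLP and VP and at 4.62, 11.1 and 13.7 in MYC. Among 20 regulators of G2/M transcription, 4 were called higher in VP, 1 in DLP and none in AP, and the 1 of 20 in DLP is near the 3.85% of all genes called higher there. E2f8, a repressor of the E2F family, went from 0.344 to 3.85 FPKM in VP, and Lin9, a MuvB subunit, from 1.04 to 4.30. Mybl2, which encodes B-MYB, was at 0.354 to 0.599 FPKM in WT and 0.596, 1.49 and 1.59 in MYC AP, DLP and VP, a difference below the calling limit in each lobe.

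Markers of other cells moved with these differences in part. The 16 hematopoietic markers summed to 198.1, 100.3 and 47.9 FPKM in WT AP, DLP and VP and to 203.3, 424.1 and 252.5 in MYC, and 15 of the 16 were called higher in MYC in DLP, 9 in VP and none in AP. Ms4a1, a B cell gene, was listed at 0 in the 3 WT libraries and Cd79b in WT VP. Single markers in AP differed between the genotypes by log2 values from -0.52 (Cd68) to 0.83 (Nkg7), with a median of 0.05. Blood cells can divide too, and their part in the mitotic levels was not tested in any lobe. The 10 endothelial markers did not follow the mitotic genes (222, 160.2 and 36.2 FPKM in WT AP, DLP and VP, and 239.7, 186.7 and 40.4 in MYC; 1 called higher in VP and none in DLP or AP). The 8 smooth muscle markers summed to 327.7, 504.2 and 416 FPKM in WT AP, DLP and VP and to 431, 298.6 and 248.8 in MYC. In MYC 2 of them were called lower in VP and 3 in DLP, while in AP none was called and 7 of the 8 were above WT, with a median FPKM ratio of 1.58. Their part in the mitotic levels was not tested. The 8 fibroblast markers summed to 694.6 to 1396 FPKM in WT and to 756.3 in MYC DLP, 209 in MYC VP and 1483 in MYC AP, with 3 called lower and 2 higher in DLP, 5 lower in VP and 3 higher in AP. Basal markers summed to 2377, 1623 and 767.8 FPKM in WT AP, DLP and VP and to 1315, 2267 and 596.7 in MYC, with 3 of 8 called higher in DLP and none lower, 1 higher and 1 lower in VP, and 1 higher and 2 lower in AP.

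**Figure D4:**
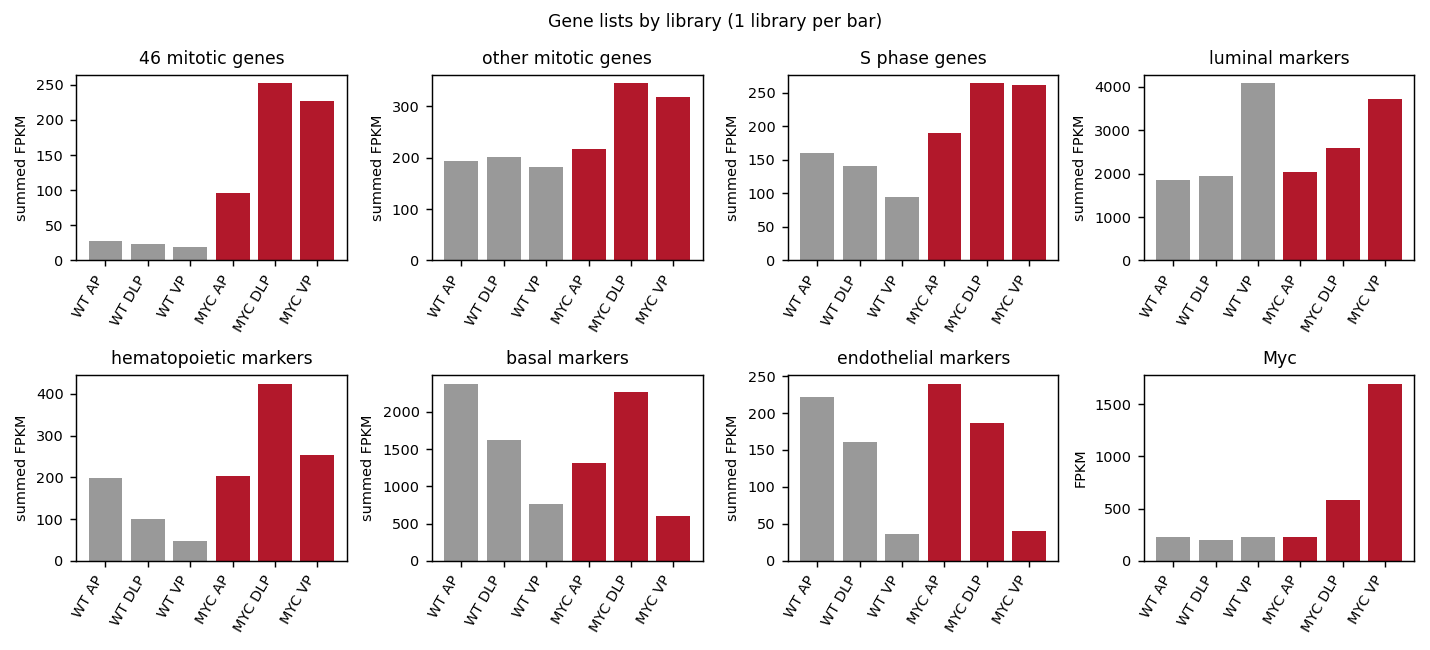
Summed FPKM of gene lists in each library (bars from 0, gray for WT and red for MYC, 1 library per bar), with Myc alone in the last panel. The 46 mitotic genes and the S phase genes are higher in MYC DLP and MYC VP than in the other libraries, with the DLP and VP bars close together, and the hematopoietic markers are highest in MYC DLP, whereas luminal markers are highest in VP of both genotypes and Myc in MYC VP.

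Myc was 2.89-fold higher in MYC VP than in MYC DLP. The median log2 difference of the mitotic genes between MYC DLP and MYC VP was 0.09 as deposited, -0.04 after scaling to medians of ratios and 0.89 per unit of Krt8 and Krt18, so that its direction depended on the scaling. In AP, Myc was at the same level in both genotypes, and the mitotic genes summed to 96.2 FPKM in MYC against 27.3 in WT.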

How the data were processed

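Polyadenylated RNA of dissociated lobes was sequenced as stranded libraries. Per the labels, the authors used bcl2fastq 2.18, STAR and Cufflinks with build mm10, and the deposited table holds FPKM per gene, normalized by the authors to transcript length and mapped reads; the annotation and strand setting are not given in the sources used here. The study's methods describe read counts and a count model, but the values are FPKM and each group has 1 library, so no test was run. Instead, log2((FPKM + 1)/(FPKM + 1)) was computed for all 24908 genes and called at 2-fold, with no filter on low values. Read numbers were estimated from the depth and the longest protein coding transcript in GENCODE M1 less 200 bases, and gave exact 95% binomial (Clopper-Pearson) intervals of a ratio, which cover counting error only; 30 members have several coding transcripts, for which reads may be overestimated and intervals too narrow. Of 30 low member values, 20 came within 0.1 of a whole read. Gene coordinates are those of RefSeq for GRCm38.p6. Values in every library are given for Ccna2, Ccnb1, Ccnb2, Cdk1, Top2a and Mki67, and in each role group for the member with the highest mean and those with the largest and smallest log2 difference in VP and DLP, and for members not called as most others; Bub1b, Foxm1, Hmmr, Dlgap5 and, outside the 46, Mybl2 were added after their values were seen. The members, role groups and marker lists were chosen with earlier results of these data known. Python 3.11.15, pandas 2.3.3 and scipy 1.17.1 were used, and the calculations were tested on simulated data.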

Additional observations from a re-analysis of the deposited data

How the results depend on the processing

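Scaling of the libraries, the pseudocount, filters on low levels or reads, and thinning to the shallowest library were varied. The share of all genes called was not computed under these alternatives, so the counts below have no background of their own. Between MYC and WT in VP and DLP no alternative moved the count of members called higher by more than 1.5 times or called a member lower. In AP, 29 members were called higher in place of 10 per unit of Krt8 and Krt18, and 42 with a pseudocount of 0.1. With that pseudocount the median log2 difference was 3.58 in VP, 3.69 in DLP and 1.92 in AP. Between DLP and VP of WT, 5 members were called higher in DLP in place of 0 per unit of the keratins and 3 with a pseudocount of 0.1. In MYC, 14 were called higher in DLP in place of 1, and 0 lower in place of 1, per unit of the keratins, with a median of 0.89, and 2 higher with a pseudocount of 0.1. Under that scaling the median over genes averaging 1 FPKM or more was 1.41 in WT and 0.96 in MYC, against 0.13 and 0.07 as deposited. The AP and VP lobes of MYC were compared under the same alternatives after the data were seen. The median went from -0.98 to 0.03 per unit of the keratins, with 1 member lower and 3 higher, and the count of members lower in AP, 23 as deposited, was 12 with equal sums of FPKM, 15 with equal sums without the 20 genes of highest FPKM and 39 with a pseudocount of 0.1. Against MYC DLP, 15 members were lower per unit of the keratins and 40 with a pseudocount of 0.1, in place of 24. In each of these cases the cause was not tested. No paired analysis was possible because each genotype is 1 mouse, whose 3 lobes are not replicates of a condition. With fewer than 10 estimated reads for up to 10 members in a WT library, ratios over WT are the least precise for the lowest genes.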

Other observations

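A few mitotic genes outside the 46 had lobe patterns of their own in the WT mouse. Ncaph, a condensin subunit, was at 0.503 FPKM in WT AP, 1.92 in WT DLP and 7.40 in WT VP and at 3.28, 8.07 and 12.7 in the same lobes of MYC, so that WT VP lay above MYC AP as it did for Anln. Psrc1, a spindle protein, was at 0.128, 0.483 and 2.10 FPKM in WT AP, DLP and VP and at 0.883, 4.51 and 4.58 in MYC. The centromere protein Cenpm followed another order, with 4.10 FPKM in WT DLP against 2.31 in WT AP and 0.622 in WT VP.

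Wee1, the kinase that holds CDK1 inactive until mitosis, was the mitotic gene of highest level outside the 46 and was lower in MYC in each lobe. It was at 62.2, 51.8 and 62.3 FPKM in WT AP, DLP and VP and at 33.4, 26.7 and 35.9 in MYC, log2 differences of -0.88, -0.93 and -0.78 that miss the 2-fold limit. Rrm2, the S phase subunit of ribonucleotide reductase, was at 15.7 FPKM in WT AP against 2.98 in WT DLP and 1.89 in WT VP, and at 14.9, 11.7 and 12.5 in MYC AP, DLP and VP, so that the AP level was similar in the genotypes. These genes were picked after their values were seen.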
